A study of Mus musculus with 6 samples.

Results

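The secreted Wnt antagonists described here are 9 of the 49315 genes in a count table of mouse tail-tip fibroblasts and their CRISPR-activated derivatives. They were chosen by gene symbol as the measured members of the Dickkopf family (Dkk1, Dkk2 and Dkk3), of the secreted Frizzled-related proteins (Sfrp1, Sfrp2, Sfrp4, Sfrp5 and Frzb, also called Sfrp3) and Wif1. Libraries were made by polyA selection from total RNA of wild-type cells of tail tip skin, 6 in all and 2 per group. SAM vectors are named for every sample, the fibroblasts included. Fibroblasts (day 0) carried lentiviral control vectors, which the labels call "negetive". Early cells (day 7) carried CRISPRa vectors, and in SAM a Cas9 that does not cut brings activators to promoters. Late cells (day 22) carried CRISPRa vectors, were isolated as colonies and are labelled CRISPR-induced cardiac progenitors (ciCPC). The targeted genes, the number and age of the animals and the number of colonies were not given in the sources used here. Nothing says that replicates were separate cultures, so p-values measure the spread between these libraries, which may be technical. In the count table the column names alone tell the early from the late libraries, and if those were misread the stages would swap.

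Wnt ligands signal through Frizzled receptors and the co-receptors LRP5 and LRP6 to stabilise β-catenin, and several of them also act through other routes. Dickkopf proteins, apart from DKK3, for which it is not established, bind LRP5 and LRP6. With Kremen proteins as partners they can block the β-catenin route. Secreted Frizzled-related proteins carry a cysteine-rich domain like that of Frizzled and, with WIF1, bind Wnt ligands themselves. In heart development Wnt signals act in stages, and timed inhibition of the β-catenin route favours cardiac mesoderm in embryos and in stem cell cultures. In skin, several of these genes are expressed by dermal fibroblasts.

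Total counts ranged from 20172874 to 40122999 per library. Late replicate 2 stood apart, with 10.3% of counts from the mitochondrial genome against 1.48% to 2.16% in the other 5 libraries. The summed level of 8 cardiomyocyte markers was 46256 CPM (read counts scaled to library size, with TMM factors) in that library against 15.1 to 119 CPM in the others. Early replicate 1 and late replicate 1 correlated across genes at r = 0.945, beside 0.939 between the early libraries and 0.883 between the late ones (log2 CPM, where genes are no independent replicates). Early replicate 2 is labelled partially reprogrammed. All 8 fibroblast markers and all 8 cardiac progenitor markers had counts in every group, so having counts does not tell the groups apart. The progenitor markers summed to 17.4 and 27.2 CPM in fibroblasts, 125 and 190 CPM in early and 223 and 609 CPM in late libraries. Against fibroblasts 1 of them rose in early cells (0.695% of all genes tested did) and 1, Gata4, in late cells (0.641%). Against early cells 6 were higher and 2 lower in late cells by the estimate. Isl1 was at 6.34 and 0.758 CPM in late libraries, below its early 16.4 and 9.70 CPM. In bulk RNA, fewer cells that express a gene and less RNA per cell cannot be told apart.

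The promoters of 4 members are shown because CRISPR activation works at promoters and because they include both called members (Dkk2 and Sfrp2) and a pair with its highest values in late cells (Dkk1 and Wif1). Each runs from 250 bases before to 50 after the RefSeq start, read 5′ to 3′ along the gene (RefSeq, GRCm38.p6). They are Dkk2 (chr3:132085042-132085341, plus strand), Sfrp2 (chr3:83766071-83766370, plus), Dkk1 (chr19:30549447-30549746, minus) and Wif1 (chr10:121033754-121034053, plus). Capitals mark matches on either strand to CTTTGA, the core of the TCF/LEF motif through which β-catenin acts, to the GATA motif AGATAA or to the TATA box TATAAA.
Dkk2: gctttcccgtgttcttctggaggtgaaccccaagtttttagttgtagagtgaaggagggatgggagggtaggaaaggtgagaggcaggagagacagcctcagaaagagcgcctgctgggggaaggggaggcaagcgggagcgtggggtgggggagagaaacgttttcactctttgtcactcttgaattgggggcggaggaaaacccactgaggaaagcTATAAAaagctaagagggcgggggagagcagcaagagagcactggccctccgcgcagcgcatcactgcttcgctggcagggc
Sfrp2: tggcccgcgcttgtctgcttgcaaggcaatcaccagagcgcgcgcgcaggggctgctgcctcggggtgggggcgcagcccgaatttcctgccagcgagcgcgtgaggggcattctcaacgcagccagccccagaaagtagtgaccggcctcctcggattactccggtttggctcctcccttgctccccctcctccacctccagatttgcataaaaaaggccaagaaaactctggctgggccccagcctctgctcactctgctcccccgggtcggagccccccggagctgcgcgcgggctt
Dkk1: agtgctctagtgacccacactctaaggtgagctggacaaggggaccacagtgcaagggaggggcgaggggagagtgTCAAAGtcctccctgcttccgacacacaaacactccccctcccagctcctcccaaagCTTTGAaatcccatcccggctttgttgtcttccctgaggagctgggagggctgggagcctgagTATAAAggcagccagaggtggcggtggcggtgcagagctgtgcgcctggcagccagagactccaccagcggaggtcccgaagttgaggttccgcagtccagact
Wif1: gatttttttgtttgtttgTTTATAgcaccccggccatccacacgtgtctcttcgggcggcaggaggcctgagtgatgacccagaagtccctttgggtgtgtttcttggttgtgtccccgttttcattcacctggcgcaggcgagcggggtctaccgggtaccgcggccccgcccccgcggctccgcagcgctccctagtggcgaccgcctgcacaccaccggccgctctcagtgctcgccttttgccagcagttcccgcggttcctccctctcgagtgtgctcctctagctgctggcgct
RefSeq windows matched 6 of the 9 members. The Dkk1 window held 2 matches to the TCF/LEF core, 1 starting at position -174 on the opposite strand and 1 at -117, and a TATA match at -54. Dkk2 held a TATA match at -32, Wif1 held 1 on the opposite strand at -232, and Sfrp2 held none of the 3 motifs. Among the windows not printed, Frzb had 1 TCF/LEF match (-95) and Sfrp5 had 2 GATA matches (-236 and -180). Positions count from the RefSeq start, and the GENCODE gene began 169 bases further upstream for Dkk1, 229 for Frzb and 44 for Wif1. Of 32851 promoter windows of the same length, 5257 held the TCF/LEF core on either strand, 11.2% the GATA motif and 13.6% the TATA box. No 2 of the matches described overlap. A match is a stretch of letters, not a shown site of binding.

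Among the Dickkopf genes, Dkk2 had the highest level per kilobase of the 9 members in fibroblasts and fell at both stages. Dkk2, an LRP5 and LRP6 ligand (ENSMUSG00000028031, chromosome 3, 132085292 to 132180304 in GRCm38, plus strand, 4 exons), stood at 38.7 and 55.2 CPM in early cells, against 2246 and 1919 CPM in fibroblasts. The early libraries lay far below both fibroblast libraries and close to each other. Early cells were 44.4-fold lower, a log2 fold change of -5.47 with an SE of 0.37, and errors of log2 values are SEs throughout (edgeR adjusted p = 0.0198). Late libraries held 30.8 and 23.0 CPM against the same fibroblast values, a log2 fold change of -6.27 ± 0.39 (edgeR adjusted p = 0.0240), 77.4-fold lower. Both late values were also below both early values, with a log2 fold change of -0.80 ± 0.31 that did not pass the test (edgeR adjusted p = 0.475). The comparisons with fibroblasts share the fibroblast libraries. The early call was lost without fibroblast replicate 1 (edgeR adjusted p = 0.164), fibroblast replicate 2 (0.160) or early replicate 1 (0.0754), and the late call without fibroblast replicate 1 (0.226), fibroblast replicate 2 (0.190) or late replicate 2 (0.0704). Each of these fits leaves 1 library in a compared group, and its spread is taken from the other groups. The log2 fold change stayed between -5.71 and -5.23 for early and between -6.59 and -6.08 for late cells over all alternatives.

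Dkk3, a divergent Dickkopf protein for which binding to LRP5 and LRP6 is not established (ENSMUSG00000030772, chromosome 7, 112116017 to 112159057, minus strand, 8 exons), was lower at both stages without passing the test. It stood at 59.6 and 142 CPM in early cells, against 484 and 692 CPM in fibroblasts, and at 56.0 and 93.2 CPM in late libraries. Every early and late value lay below every fibroblast value, and the early and late ranges overlapped. The log2 fold change was -2.54 ± 0.53 for early cells (edgeR adjusted p = 0.0695) and -2.98 ± 0.54 for late cells (edgeR adjusted p = 0.0601).

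Dkk1, the best known antagonist of the β-catenin route (ENSMUSG00000024868, chromosome 19, 30545863 to 30549665, minus strand, 4 exons), had its values in the other direction, at low counts. It had 6 and 10 counts in early libraries against 4 and 0 in fibroblasts, which is 0.267 and 0.473 CPM against 0.134 and 0 CPM. Late libraries had 140 and 46 counts, or 5.84 and 1.29 CPM. The values of the 3 stages did not overlap. Fitted log2 fold changes were 2.43 ± 1.44 in early cells (edgeR adjusted p = 0.311), 5.68 ± 1.48 in late cells against fibroblasts (0.0830) and 3.25 ± 1.28 in late against early cells (0.483), so no difference passed the test. Fibroblast replicate 2, with 0 counts, was under the floor of 3 counts used here. The late log2 fold change against fibroblasts lay between 4.15 (without late replicate 1) and 9.61 (without fibroblast replicate 1) when 1 library was left out.

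**Figure D1:**
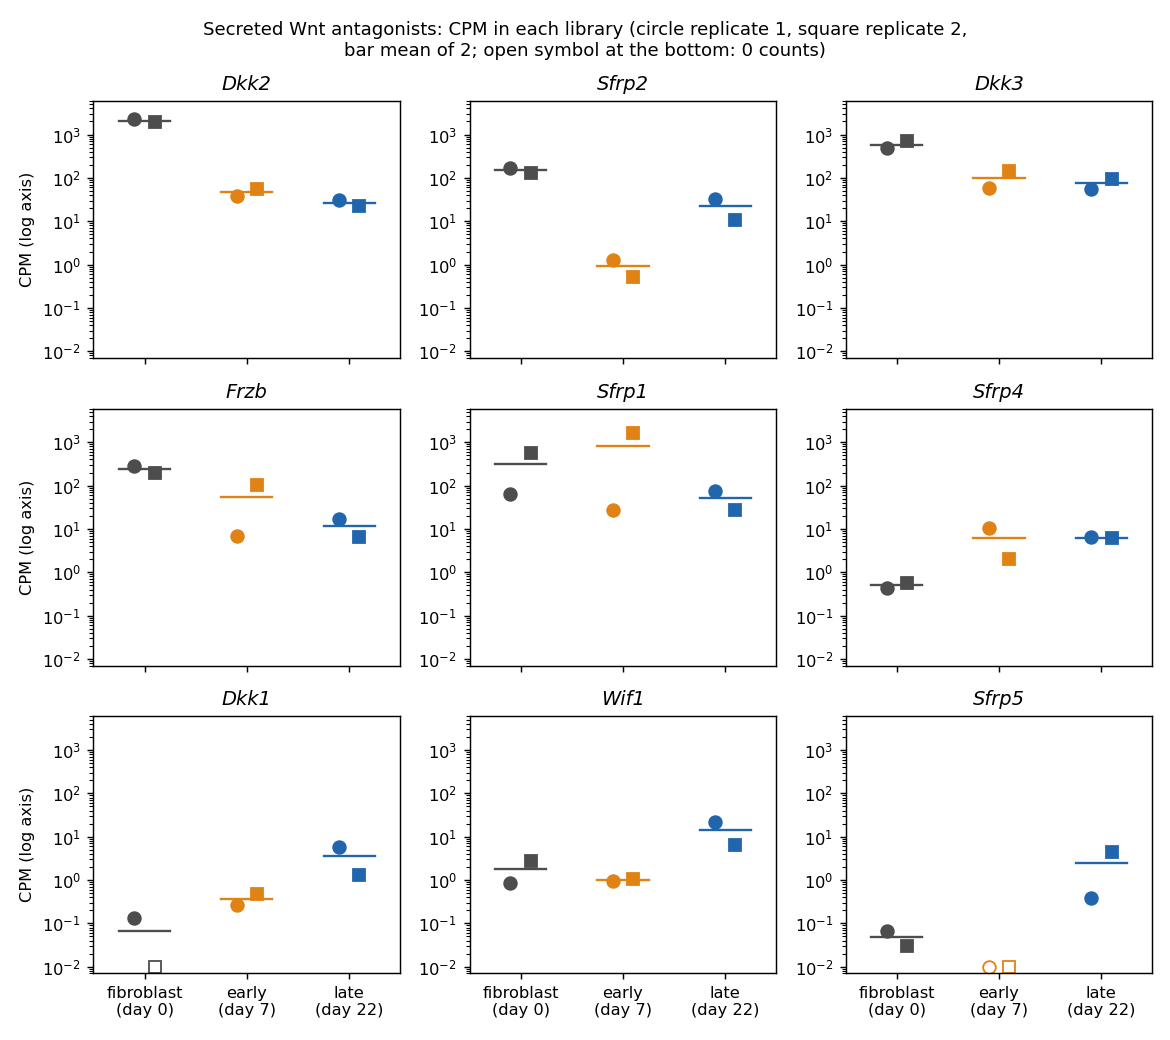
CPM of the 9 secreted Wnt antagonists in each library on a log axis, by day. Circles are replicate 1, squares replicate 2, bars the mean of the 2 libraries, and open symbols at the bottom mark 0 counts. Dkk2 was lower than in fibroblasts at both stages, Sfrp2 was at 1.29 and 0.521 CPM in early and at 33.3 and 10.9 CPM in late libraries, and Dkk1, Wif1 and Sfrp5 had their highest values in late libraries.

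Among the secreted Frizzled-related genes, Sfrp2 fell in early cells and had late values between those of the other stages. Sfrp2, a Wnt modulator expressed by dermal fibroblasts (ENSMUSG00000027996, chromosome 3, 83766321 to 83774316, plus strand, 3 exons), stood at 1.29 and 0.521 CPM in early cells, against 171 and 130 CPM in fibroblasts. Those early values rest on 29 and 11 counts. Early cells gave a log2 fold change of -7.36 ± 0.84 (edgeR adjusted p = 0.0368), or 164-fold lower. Late libraries held 33.3 and 10.9 CPM, between the early and the fibroblast ranges with no overlap. Late cells differed from fibroblasts by a log2 fold change of -2.77 ± 0.67 (edgeR adjusted p = 0.0768) and from early cells by 4.59 ± 0.75 (edgeR adjusted p = 0.290). The difference between late and early cells did not pass in the edgeR fit, while DESeq2 gave it an adjusted p of 4.0e-07 (range over 12 alternatives 4.0e-07 to 0.703). The early call was lost without fibroblast replicate 1 (edgeR adjusted p = 0.202), fibroblast replicate 2 (0.220), early replicate 1 (0.112) or early replicate 2 (0.0674). An antisense gene, Gm26771, overlaps Sfrp2 exons. It had 0 and 1 counts in early, 3 and 2 in late and 4 and 4 in fibroblast libraries, and reads of the pair cannot be told apart if strand was not used. No other member overlaps another annotated gene.

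Frzb and Sfrp1 differed between libraries of the same stage more than most genes. Frzb, an antagonist also known from cartilage (ENSMUSG00000027004, chromosome 2, 80411970 to 80447625, minus strand, 6 exons), stood at 6.73 and 104 CPM in early cells, against 289 and 194 CPM in fibroblasts. Late libraries held 17.2 and 6.46 CPM. Early and late values all lay below the fibroblast values, but the early libraries were 15.4-fold apart, farther than 98.7% of genes tested. The log2 fold change was -2.13 ± 1.22 in early cells (edgeR adjusted p = 0.298) and -4.36 ± 1.35 in late cells (edgeR adjusted p = 0.106). The early value was -5.13 without early replicate 2 and -1.22 without early replicate 1.

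Sfrp1, a broadly expressed member of the family (ENSMUSG00000031548, chromosome 8, 23411502 to 23449632, plus strand, 3 exons), stood at 27.3 and 1644 CPM in early cells, against 64.6 and 577 CPM in fibroblasts. Late libraries held 73.5 and 27.8 CPM. The stages overlapped in every comparison. The early libraries were 60.1-fold apart, farther than 99.6% of genes tested, and the fibroblast libraries 8.93-fold apart, farther than 99.7%. The fitted early difference was 1.38 ± 1.81 in log2 units (edgeR adjusted p = 0.650), and without early replicate 2 it was -3.51 (edgeR adjusted p = 0.275), so its direction rests on that library. The late difference from fibroblasts was -2.66 ± 1.89 (edgeR adjusted p = 0.361). Fibroblast matrix genes differed between the early libraries in the same direction, by unlike amounts. Col3a1, a fibrillar collagen, was at 17.0 CPM in early replicate 1 and 3888 CPM in early replicate 2. Dcn, decorin, was at 3.21 and 679 CPM, and Col1a1 at 1910 and 3445 CPM. Of the 8 fibroblast markers only Vim went the other way, at 2941 and 2391 CPM. The 8 fibroblast markers summed to 5688 and 14472 CPM in early, 5136 and 4763 CPM in late and 11451 and 13290 CPM in fibroblast libraries. Of these markers Lum had 0 counts in early replicate 1. The part of these cells in the values of Sfrp1 and Frzb was not tested.

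Sfrp4 was the member with the closest late values. Sfrp4, a family member linked to phosphate handling and bone (ENSMUSG00000021319, chromosome 13, 19623104 to 19632994, plus strand, 5 exons), stood at 10.3 and 1.99 CPM in early cells, against 0.436 and 0.559 CPM in fibroblasts. Late libraries held 6.38 and 6.15 CPM. All early and late values were above both fibroblast values. For Sfrp4 the log2 fold change was 3.62 ± 0.92 in early cells (edgeR adjusted p = 0.0821) and 3.64 ± 0.92 in late cells (edgeR adjusted p = 0.0799), and it did not pass at either stage. Late minus early was 0.02 ± 0.81 on the log2 scale (edgeR adjusted p = 0.998), which is small beside its error.

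Sfrp5, a relative of Sfrp1 and Sfrp2 (ENSMUSG00000018822, chromosome 19, 42197971 to 42202252, minus strand, 3 exons), was seen almost entirely in late libraries. It had 9 and 159 counts in late libraries, or 0.375 and 4.47 CPM, against 2 and 1 counts in fibroblasts. Early libraries had 0 counts, which allows up to 0.134 and 0.142 CPM. Over the summed counts late cells stood at 59.9 times the fibroblast level (exact 95% counting interval 20.2 to 294, which covers counting error only). Against early cells the level was at least 40.9-fold higher, computed with 3 counts over the early group. The edgeR adjusted p was 0.108 against fibroblasts and 0.396 against early cells. The late libraries were 11.9-fold apart, with the higher value in late replicate 2, the library with the high cardiomyocyte sum. Sfrp5 passed the filter on low counts through its late libraries alone, and Dkk1 through both late libraries and 1 early library.

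Wif1, which binds Wnt ligands through a domain of its own (ENSMUSG00000020218, chromosome 10, 121033960 to 121100650, plus strand, 10 exons), had its highest values in late cells. Late libraries held 22.4 and 6.57 CPM against 0.873 and 2.68 CPM in fibroblasts, and early libraries held 0.935 and 1.04 CPM. Both late values exceeded the other 4, and the early values lay within the fibroblast range. In late cells the log2 fold change was 3.02 ± 0.88 against fibroblasts (edgeR adjusted p = 0.0941) and 3.87 ± 0.92 against early cells (edgeR adjusted p = 0.377). For early cells against fibroblasts it was -0.84 ± 0.84 (edgeR adjusted p = 0.543).

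**Figure D2:**
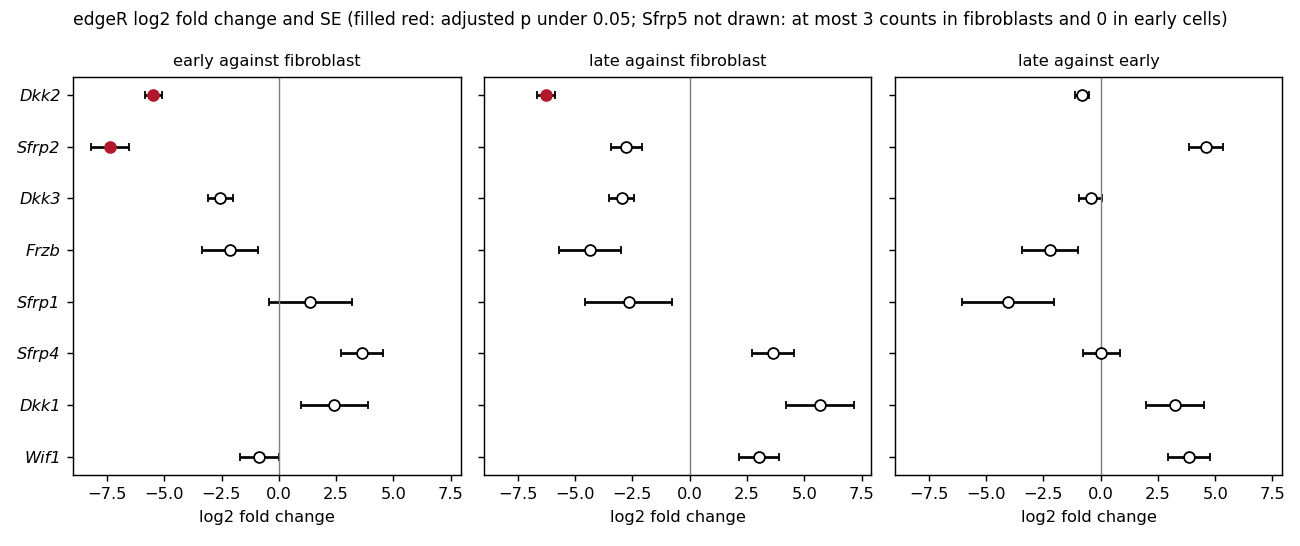
Log2 fold changes with their standard errors for 8 members in the 3 comparisons, from the edgeR fit over 6 libraries. Filled red points passed the test: Dkk2 and Sfrp2 in early and Dkk2 in late cells against fibroblasts. Sfrp5 is not drawn because it had 3 counts over both fibroblast libraries and 0 in early cells.

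Counted together, 2 of 9 members were called lower and 0 higher in early cells, beside 0.833% and 0.695% of the 16688 genes tested (1.53% in either direction). In late cells 1 was called lower, beside 0.779% of genes, and 0 higher (0.641% of genes, and 1.42% in either direction), with 8 members at an unadjusted p under 0.05, beside 32.5% of genes. In early cells 4 members were at such a p, beside 29.8% of genes. DESeq2 called 3 lower (11.5% of genes with a DESeq2 adjusted p) and 1 higher (11%) in early cells, 22.5% of genes in either direction. In late cells it called 4 lower (12.1%) and 4 higher (13.8%), 26% in either direction. Between late and early cells 0 members and 0 genes were called by edgeR (0% of genes), with 5 members and 1709 genes (10.2%) at an unadjusted p under 0.05. DESeq2 called 3 members there, Sfrp2, Sfrp5 and Wif1, all higher in late cells, and 1110 genes (6.56%; 5.72% higher and 0.846% lower). Libraries of early cells lay wholly below fibroblasts for 5 members (34.4% of genes did) and wholly above for 2 (32.3%), and 1 of the 5 is Sfrp5 with at most 2 counts in any of these libraries. Late libraries lay wholly below for 4 members (32.9%) and wholly above for 4 (35.7%), and wholly above early libraries for 4 (16.1%) and below for 1 (17.6%). Sfrp5, which passed the filter through its late libraries alone, is in both counts above. Without it they were 3 and 3 of 8 members. Members at an unadjusted p under 0.05 were then 7 in late cells against fibroblasts and 4 against early cells. DESeq2 then called 3 and 2 higher. By the estimate alone, 3 members were higher and 6 lower in early cells (50.2% and 49.7% of genes), 4 higher and 5 lower in late cells against fibroblasts (54.1% and 45.9%), and 5 higher and 4 lower in late against early cells (47.1% and 52.8%). Sfrp5 is among the members higher in both late comparisons. These counts by direction were not tested. The median log2 fold change over the 9 members was -2.13 in early and -2.66 in late cells, beside 0.004 and 0.11 over all genes tested. Leaving out Sfrp5, whose early fold cannot be given, the medians were -1.49 and -2.71.

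The order of the members by level changed between the stages. Levels of different genes were compared as CPM per kilobase of annotated exon. In fibroblasts Dkk2 led at 606 and 518 CPM per kilobase, above Dkk3 at 144 and 206. Frzb (89.4 and 60.1), Sfrp1 (14.8 and 132) and Sfrp2 (79.2 and 60.2 CPM per kilobase) followed and overlapped one another. Wif1 at 0.3597 and 1.10 and Sfrp4 at 0.104 and 0.134 CPM per kilobase came next without overlap, and Dkk1 and Sfrp5 overlapped at or below 0.0553. In early cells Sfrp1, Dkk3, Frzb and Dkk2 each overlapped the next in order, and Dkk2 at 10.4 and 14.9 CPM per kilobase lay above Sfrp4 at 2.47 and 0.476. Sfrp4, Sfrp2 and Wif1 each overlapped the next, Dkk1 (0.110 and 0.195) lay below them, and Sfrp5 was at 0. In late cells the members from Dkk3 (16.7 and 27.7) through Sfrp1, Sfrp2, Dkk2 and Wif1 to Frzb (5.31 and 1.995 CPM per kilobase) each overlapped the next. Sfrp4, at 1.53 and 1.47, lay below them, while Dkk1 (2.40 and 0.532) and Sfrp5 (0.197 and 2.35) overlapped Frzb, Sfrp4 and each other.

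**Figure D3:**
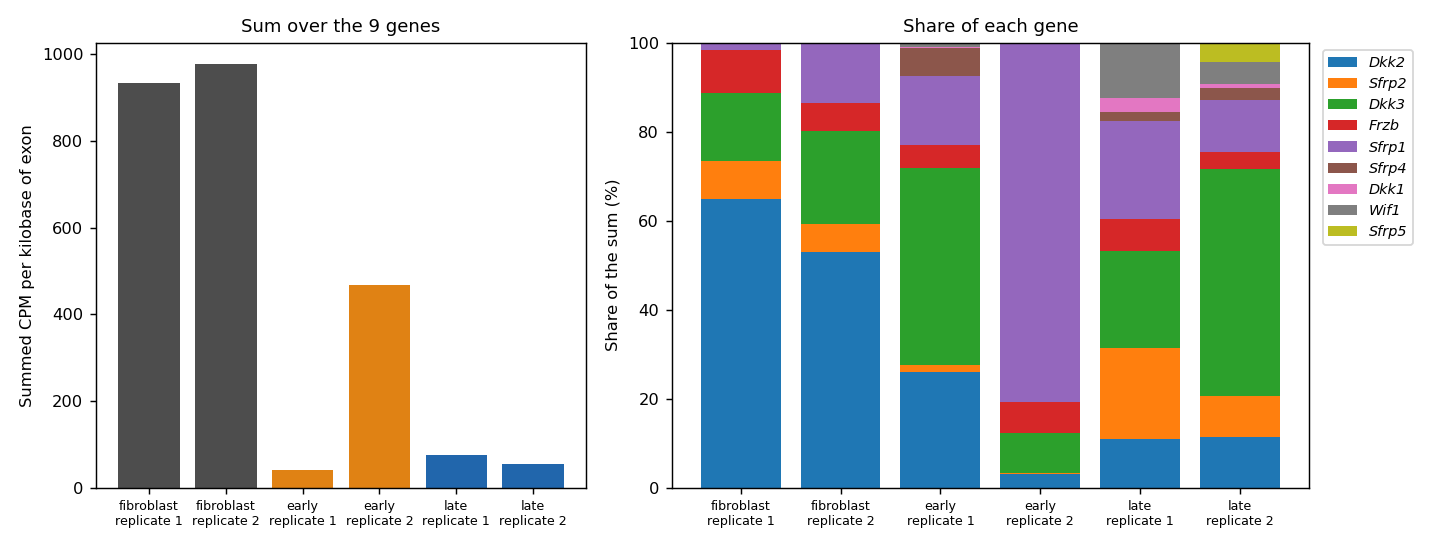
Left, the summed level of the 9 members in each library as CPM per kilobase of exon. Right, the share of each member in that sum. The sum was 934 and 978 in fibroblasts, 40.1 and 467 in early and 75.9 and 54.4 in late libraries, and Sfrp1 alone made up 80.6% of it in early replicate 2.

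Summed over the 9 members, the level was 40.1 and 467 CPM per kilobase in early libraries against 934 and 978 in fibroblasts, and 75.9 and 54.4 in late libraries. Dkk2 made up 26.0% and 3.19% of that sum in early and 10.97% and 11.4% in late libraries, against 64.9% and 53.0% in fibroblasts. Sfrp1 made up 15.6% and 80.6% in early libraries, so the high sum of early replicate 2 rests on that gene. Dkk1, Wif1, Sfrp4 and Sfrp5 together made up 7.41% and 0.2357% of the sum in early and 17.6% and 13.0% in late libraries, against 0.0594% and 0.128% in fibroblasts. Wif1 had 12.1% and 4.98% of the late sums, Dkk1 3.17% and 0.978%, Sfrp4 2.01% and 2.70% and Sfrp5 0.260% and 4.32%. The sums are a description and were not tested.

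Genes whose pattern over the 6 libraries was most like that of the called members were taken by Pearson correlation of log2 CPM among 9567 genes. For Dkk2 these were Cacna1a, a calcium channel subunit (r = 0.997), Ankrd12 (0.997) and Fpgt (0.995). Cacna1a was at 7.04 and 9.28 CPM in early and 6.17 and 6.49 CPM in late libraries, against 42.8 and 41.8 CPM in fibroblasts. For Sfrp2 they were Stx3, a membrane fusion protein (0.996), Mturn (0.995) and Rrm2b, a ribonucleotide reductase subunit (0.995). Mturn was at 10.3 and 5.82 CPM in early and 30.3 and 21.2 CPM in late libraries, against 73.4 and 63.8 CPM in fibroblasts. With 6 points in 3 stages such correlations follow the stage means and come from the same libraries.

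The ligands and receptors on which the antagonists act were examined in lists of 83 further Wnt pathway genes, of which 71 were tested. In early cells 1 was called higher and 3 lower (0.695% and 0.833% of all genes), and in late cells 0 higher and 2 lower (0.641% and 0.779%). Their median log2 fold change was -0.27 in early and -0.09 in late cells. Between late and early cells edgeR called 0 of them, with 13 at an unadjusted p under 0.05 (10.2% of all genes). DESeq2 called 9 there (6.56% of all genes), all higher (5.72%). The lists were chosen from knowledge of the pathway, with earlier results of these data known.

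Of 19 Wnt ligands 11 were tested, and Wnt5a, which acts mostly outside the β-catenin route and binds several Frizzled-related proteins, fell at both stages. It stood at 69.6 and 57.7 CPM in early cells, against 337 and 283 CPM in fibroblasts (log2 fold change -2.28 ± 0.26, edgeR adjusted p = 0.0368). Late libraries held 63.0 and 46.3 CPM (-2.50 ± 0.27, edgeR adjusted p = 0.0364). Wnt2b was at 0.490 and 1.23 CPM in early and 0.875 and 2.27 CPM in late libraries, against 11.4 and 22.6 CPM in fibroblasts, and did not pass (edgeR adjusted p = 0.0655 and 0.0751). Wnt4 was at 35.7 and 18.0 CPM in early and 57.4 and 13.5 CPM in late libraries, against 7.86 and 14.3 CPM in fibroblasts, and did not pass (edgeR adjusted p = 0.321 and 0.201). Wnt5b was at 4.28 and 3.55 CPM in early and 25.8 and 10.2 CPM in late libraries, against 6.78 and 3.56 CPM in fibroblasts, and did not pass (edgeR adjusted p = 0.697 and 0.122). Wnt9a was at 1.38 and 7.52 CPM in early and 3.17 and 6.57 CPM in late libraries, against 6.04 and 9.62 CPM in fibroblasts, and overlapped them at both stages. Of the 11 tested ligands, 4 in early and 5 in late cells were at an unadjusted p under 0.05 (29.8% and 32.5% of all genes). Of all 19, DESeq2 called 0 higher and 4 lower in early cells (11% and 11.5%). In late cells it called 5 higher and 2 lower (13.8% and 12.1%).

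Of 15 tested receptors and co-receptors edgeR called 0 in both comparisons with fibroblasts, with 5 in early and 6 in late cells at an unadjusted p under 0.05, and DESeq2 called 4 and 5. Over all genes, 29.8% and 32.5% were at such a p and DESeq2 called 22.5% and 26%, so these counts lie near the background. Lrp6, the co-receptor bound by Dickkopf proteins, was at 155 and 211 CPM in early and 146 and 145 CPM in late libraries, against 135 and 175 CPM in fibroblasts. Lrp5, its relative, named here for that role after its values were seen, was at 47.3 and 71.4 CPM in early and 45.1 and 74.1 CPM in late libraries, against 168 and 175 CPM in fibroblasts (edgeR adjusted p = 0.0733 and 0.0709). Other receptors with values in the opposite direction, also named after their values were seen, were Fzd4 and Fzd6. Fzd4 was at 45.4 and 22.1 CPM in early and 46.9 and 84.8 CPM in late libraries, against 6.08 and 3.74 CPM in fibroblasts (edgeR adjusted p = 0.0642 and 0.0521). Fzd6 was at 84.0 and 35.0 CPM in early and 49.3 and 62.7 CPM in late libraries, against 10.6 and 7.97 CPM in fibroblasts (edgeR adjusted p = 0.0602 and 0.0608). Kremen1, the Dickkopf partner receptor, was at 46.3 and 52.7 CPM in early and 49.5 and 134 CPM in late libraries, against 200 and 188 CPM in fibroblasts (edgeR adjusted p = 0.0807 and 0.183). Of 17 other antagonists, Kremen1 among them, 13 were tested and edgeR called 0 at either stage, with 5 in early and 6 in late cells at an unadjusted p under 0.05 (29.8% and 32.5% of all genes). DESeq2 called 4 lower in early cells (11.5% of all genes). In late cells it called 4 higher (13.8%) and 3 lower (12.1%). Fzd2 and Fzd1 had early values of 81.4 and 349 CPM and of 26.9 and 190 CPM, with early replicate 2 the higher in each, as for Sfrp1 and Frzb.

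R-spondins, which amplify Wnt signals through LGR receptors, include 1 member that fell at both stages. Rspo2 stood at 0.401 and 0.473 CPM in early cells, against 39.2 and 94.5 CPM in fibroblasts (log2 fold change -7.24 ± 0.70, edgeR adjusted p = 0.0289). Late libraries held 0.417 and 0.197 CPM (-7.79 ± 0.71, edgeR adjusted p = 0.0325). Lgr4 fell in early cells, at 33.4 and 35.2 CPM against 108 and 163 CPM in fibroblasts (-1.99 ± 0.26, edgeR adjusted p = 0.0438), and did not pass in late cells (45.9 and 46.3 CPM, edgeR adjusted p = 0.0559). Of 7 tested members of this list, 2 were called lower in early cells (0.833% of all genes) and 1 in late cells (0.779%), and 0 higher. At an unadjusted p under 0.05 were 5 in early and 5 in late cells (29.8% and 32.5% of all genes). DESeq2 called 6 lower in early cells (11.5% of all genes) and 5 lower in late cells (12.1%), and 0 higher (11% and 13.8%). Lgr6, a relative of Lgr4 and Lgr5, was at 3.16 and 0.994 CPM in early and 4.17 and 84.2 CPM in late libraries, against 45.2 and 8.09 CPM in fibroblasts (edgeR adjusted p = 0.205 and 0.746). Its late libraries lay on either side of the fibroblasts. Lgr5, a receptor that is also a β-catenin target, was at 2.27 and 1.23 CPM in early and 2.46 and 0.730 CPM in late libraries, against 57.2 and 46.0 CPM in fibroblasts (edgeR adjusted p = 0.0504 and 0.0508). Rspo3 was at 3.07 and 2.98 CPM in early and 3.46 and 0.955 CPM in late libraries, against 23.0 and 34.1 CPM in fibroblasts, and did not pass.

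Among 12 tested targets of β-catenin 1 was called higher in early cells (0.695% of all genes) and 0 in late cells (0.641%). The called gene was Sp5, a zinc-finger factor induced by the pathway in several tissues. It had 6.32 and 4.78 CPM in early and 2.21 and 1.10 CPM in late libraries and 0 counts in fibroblasts. The early level was at least 119-fold and the late level at least 32.8-fold higher than fibroblasts, computed with 3 counts over the fibroblast group (edgeR adjusted p = 0.0456 and 0.0556). Axin2, a feedback inhibitor widely used as a readout of the pathway and named here after its values were seen, was at 4.41 and 6.25 CPM in early and 5.13 and 4.61 CPM in late libraries, against 1.24 and 1.12 CPM in fibroblasts (edgeR adjusted p = 0.0746 and 0.0765). Ccnd1 was at 679 and 269 CPM in early and 336 and 274 CPM in late libraries, against 904 and 647 CPM in fibroblasts, and did not pass. Its early values overlapped the fibroblast values. Cd44, Twist1 and Ccn4 did not pass, with edgeR adjusted p from 0.0564 to 0.202, and had early and late values below both fibroblast values. Targets thus had estimates in both directions, 6 higher and 6 lower at each stage. At an unadjusted p under 0.05 were 5 targets in early and 8 in late cells (29.8% and 32.5% of all genes). DESeq2 called 2 targets higher and 2 lower in early cells (11% and 11.5% of all genes). In late cells it called 3 higher and 4 lower (13.8% and 12.1%). Of the 13 genes of the intracellular machinery edgeR called 0 at either stage. At an unadjusted p under 0.05 were 1 in early and 2 in late cells (29.8% and 32.5% of all genes). DESeq2 called 0 and 1 (22.5% and 26% of all genes). Ctnnb1, which encodes β-catenin, was at 962 and 903 CPM in early and 736 and 723 CPM in late libraries, against 877 and 902 CPM in fibroblasts.

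The calls of the pathway genes moved with single libraries too. Each of the 6 calls made on Wnt5a, Rspo2, Lgr4 and Sp5 was lost without either fibroblast library, with edgeR adjusted p from 0.164 to 0.266. The 4 early calls were also lost without early replicate 1 (edgeR adjusted p = 0.112 to 0.136) or early replicate 2 (0.0551 to 0.0778), and the 2 late calls without late replicate 2 (0.0736 for Rspo2 and 0.0757 for Wnt5a).

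**Figure D4:**
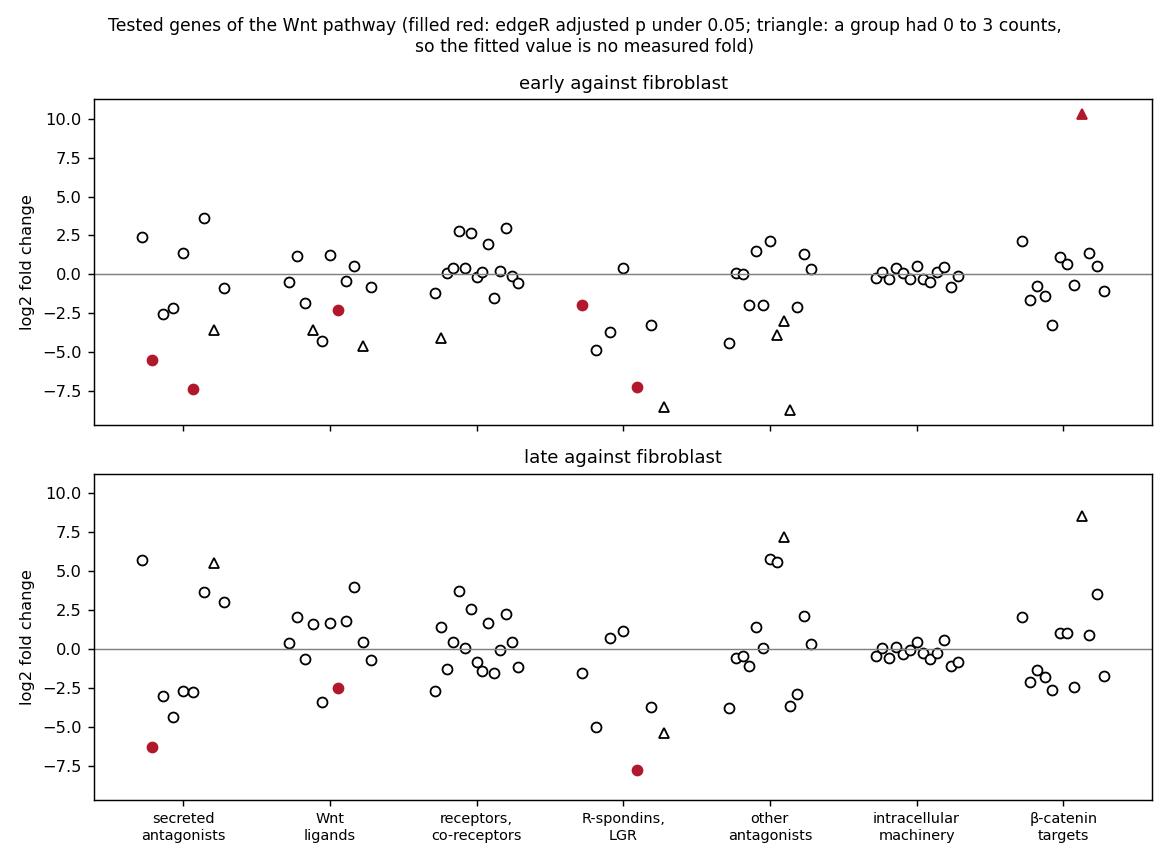
Log2 fold changes of the tested Wnt pathway genes against fibroblasts, by list, with early cells above and late cells below. Each point is a gene, filled red where it passed the test, and triangles mark genes with 0 to 3 counts in a compared group, for which the fitted value is no measured fold. The 13 genes of the intracellular machinery stay near 0, while the 9 secreted antagonists spread to both sides.

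Sums of dermal papilla, tendon and macrophage markers were below both fibroblast libraries at both stages, and those of smooth muscle markers in early cells. Dermal papilla markers (6 listed, 6 with counts) summed to 8.24 and 10.98 CPM in early and 32.2 and 145 CPM in late libraries. The fibroblast sums were 3116 and 400 CPM, of which Crabp1 held 3015 and 328 CPM. By the estimate 5 of the markers were lower and 1 higher in early cells, and 4 lower and 2 higher in late cells. Corin held 114 CPM of the sum in late replicate 2. Alpl was at 7.63 and 27.8 CPM in late libraries, against 0.101 and 0.265 CPM in fibroblasts. Tendon markers (5 of 5 with counts) summed to 8.33 and 10.2 CPM in early and 9.05 and 19.0 CPM in late libraries. The fibroblast sums were 173 and 94.2 CPM, and Tnmd was at 0 in early cells. Thbs4 held 140 CPM of the sum in fibroblast replicate 1 and Fmod 57.4 CPM in fibroblast replicate 2. Scx was at 7.62 and 1.47 CPM in early and 4.88 and 8.76 CPM in late libraries. Its fibroblast values, 5.34 and 6.12 CPM, overlapped both. Macrophage markers (6 of 6) summed to 4.37 and 10.7 CPM in early and 4.08 and 125 CPM in late libraries, against 245 and 1060 CPM in fibroblasts. Smooth muscle markers (5 of 5) summed to 129 and 159 CPM in early and 943 and 858 CPM in late libraries, against 790 and 3255 CPM in fibroblasts, so the late sums lay within the fibroblast range. Acta2 held 814 and 717 CPM of the late and 590 and 2714 CPM of the fibroblast sums. By the estimate 4 of the 5 smooth muscle markers were lower and 1 higher in late cells. Keratinocyte markers (5 of 6 with counts) summed to 15.0 and 12.8 CPM in early and 64.1 and 803 CPM in late libraries, against 96.6 and 41.4 CPM in fibroblasts, where Krt5, Krt14 and Krt1 were at 0. Dsp, a desmosome gene that cardiomyocytes also express, held 795 CPM of the sum in late replicate 2. Chondrocyte markers (6 of 6) summed to 107 and 121 CPM in early and 125 and 73.9 CPM in late libraries, against 47.8 and 101 CPM in fibroblasts. Sox9 held 98.3 and 116 CPM of the early sums, while Comp had 0.178 and 0.284 CPM in early cells, against 14.1 and 51.9 CPM in fibroblasts. Of the 5 chondrocyte markers tested, 3 were lower in early cells by the estimate. Osteoblast markers (6 of 6) summed to between 39.0 and 52.0 CPM in every library, but the single markers were not stable. Runx2 held 49.2 CPM of the sum in fibroblast replicate 1 and 33.4 and 23.9 CPM of the late sums. Alpl, also on this list, held 0.101 and 0.265 CPM of the fibroblast and 7.63 and 27.8 CPM of the late sums. Ibsp was at 0 in early and late cells and Bglap at 0 in fibroblasts. Beside the antagonists with higher late values, endothelial markers (6 of 6) summed to 1.74 and 1.89 CPM in early and 23.1 and 648 CPM in late libraries, against 6.58 and 10.6 CPM in fibroblasts, and epicardial markers (6 of 6) to 461 and 142 CPM in early and 223 and 271 CPM in late libraries, against 18.4 and 23.1 CPM in fibroblasts. Krt19, a keratin, held 444 and 105 CPM of the early and 202 and 225 CPM of the late epicardial sums. Dkk1 and Wif1 were higher in late replicate 1, and Sfrp5 in late replicate 2, where the endothelial and cardiomyocyte sums were high. The part of these cell types in the antagonists' values was not tested.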

How the data were processed

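The authors deposited 1 table of raw counts, with no normalization, for the Ensembl genes of 6 libraries. The submitters' processing notes name GRCm38, Subread 1.5.2, featureCounts, STAR 2.5.2b and Trimmomatic 0.36. The annotation release, the strand setting and the treatment of reads with several positions were not given in the sources used here.

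Symbols, exon lengths and positions came from GENCODE M21 (48970 of 49315 identifiers had a symbol). In R 4.3.3 with edgeR 4.0.16, 16688 genes passed the default expression filter (minimum count 10), libraries were scaled by TMM, and a robust quasi-likelihood model of the 3 group means was fitted to every library with no block (3 residual degrees of freedom). P-values were adjusted over all genes tested (Benjamini-Hochberg) and a gene rose or fell at an adjusted p under 0.05. Each SE is the log2 fold change over the root of its F. The fit was tested on simulated data. A group at 0 was given a floor of 3 counts, and 95% exact intervals cover counting error only. Alternatives were DESeq2 1.42.0, other scalings and filters, 2 groups only, a block and leaving out each library. Named were all 9 members, each called pathway gene, up to 4 uncalled genes per list by mean CPM, and 3 similar genes per called member with a mean log2 CPM of at least 3. Members and lists were chosen with earlier results of these data known.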

Additional observations from a re-analysis of the deposited data

Results flagged for a closer look

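Sfrp5 moved to opposite sides of the fibroblast libraries at the stages. Its mean level differed from fibroblasts by -0.0483 CPM in early cells and by 2.37 CPM in late cells, with every library of a stage on its side. The early side rests on 0 counts against 2 and 1 counts in fibroblasts, all at or under the floor of 3 counts. The direct difference between late and early cells had an edgeR adjusted p of 0.396.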

How the results depend on the processing

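Leaving out 1 library at a time gave 0 to 2 called members in early cells, 0 to 3 in late cells against fibroblasts and 0 in late against early cells. Other pathway genes called ranged over 0 to 8, 0 to 8 and 0 to 1, and all genes called over 0 to 823, 0 to 1058 and 0 to 602. DESeq2 called 4, 8 and 3 members, 22, 32 and 9 pathway genes and 4067, 4703 and 1110 genes in those comparisons. Without an expression filter edgeR called 4, 6 and 2 members, 17, 22 and 2 pathway genes and 2337, 2495 and 276 genes. With CPM of at least 1 in at least 2 libraries it called 466 genes in early cells and 4 pathway genes in late cells. Fitting 2 groups alone gave 11 pathway genes and 1469 genes in early cells, and 4 members, 6 pathway genes and 1016 genes in late cells. With the replicate number as a block it called 1 member, 0 pathway genes and 26 genes in early cells (Dkk2 adjusted p = 0.0505, Sfrp2 0.0490), and 0, 0 and 9 in late cells (Dkk2 0.0663). Nothing says that the numbers pair libraries: differences between replicates correlated between groups at 0.121, 0.238 and 0.086 across genes.

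Leaving out 1 library turned some log2 fold changes that had not passed. In early cells the range was -3.51 (without early replicate 2) to 3.69 for Sfrp1 and -1.44 to 0.17 (without fibroblast replicate 2) for Wif1. In late against early cells it was -0.98 to 0.24 for Dkk3, -5.02 to 0.85 for Sfrp1, -0.79 to 1.62 for Sfrp4 and -3.19 to 0.77 for Frzb, each turned without early replicate 2. Sfrp4 there was also at -0.13 without late replicate 1 and at -0.0093 under the stricter filter. Their causes were not tested. Among the members' other values, 24 passed and 2 no longer passed under other settings, and 6 passed and 10 no longer passed without 1 library, in the same direction. Raw library totals put the summed CPM of the members at 3139 in fibroblasts, against 3386 after TMM, and shift the median log2 fold change of all genes by 0.17 in early and 0.15 in late cells. Sfrp5 did not pass the filter, and so has no value, when it was stricter, without late replicate 2, and with early cells and fibroblasts or late and early cells alone. Dkk1 did not pass with early cells and fibroblasts alone. At this depth counts below 3, as for Sfrp5 in early cells, set the limit.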

Other observations

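Some other antagonists outside the 9 members differed in either direction, and Shisa2, Shisa3 and Sost were chosen after their values were seen. Igfbp4, with the highest mean CPM of the 17 listed, was at 2290 and 2147 CPM in early and 1432 and 1683 CPM in late libraries. Its fibroblast values were 2103 and 2175 CPM (edgeR adjusted p = 0.916 for early and 0.275 for late cells). Shisa2, which retains Frizzled inside the cell, was at 80.2 and 12.8 CPM in late libraries against 0.907 and 0.765 CPM in fibroblasts (edgeR adjusted p = 0.0643). Shisa3 was at 4.29 and 2.05 CPM in late libraries against 0.0671 and 0.0588 CPM in fibroblasts (edgeR adjusted p = 0.0579) and had 0 counts in early cells. Sost, the LRP5 and LRP6 ligand sclerostin, stood at 0.333 and 10.2 CPM in late cells, a ratio of 199 to fibroblasts (exact 95% counting interval 54.7 to 1650, edgeR adjusted p = 0.111), with its high value in late replicate 2. Apcdd1, a membrane inhibitor of Wnt signals, was at 9.67 and 7.19 CPM in late and 6.81 and 4.40 CPM in early libraries, against 197 and 38.1 CPM in fibroblasts (edgeR adjusted p = 0.0700 and 0.0657). None of these passed the test.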
